A study of Homo sapiens with 24 samples.

Results

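The RNA of 42 coagulation, fibrinolysis and complement proteins of liver origin was followed in HepG2, an established line from a human hepatocellular carcinoma. The genes were taken by symbol from a list of such proteins; the rule uses no measured value, but the list was drawn up with earlier results of these data known. All 42 symbols were in the count table, which holds 34618 genes. CFB had 2 entries, of which ENSG00000243649 was used and the other was listed at 0 in every library. Of these genes 40 passed the filter on low counts and were tested, among 14887 tested genes in all; a gene that passes through only 1 line in which it is high must differ between lines, so counts over the tested members are descriptions.

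Lentivirus had been used to make 3 stable lines, which express a short hairpin RNA with no specific target (shCtrl), one directed at SETD2 (shSETD2) or one directed at METTL14 (shMETTL14). SETD2 encodes a histone H3 lysine 36 methyltransferase and METTL14 a subunit of the N6-methyladenosine writer of RNA. All lines were selected with puromycin at 1 ug/mL, grown as pools, and treated with 5 ug/mL of actinomycin D, which blocks transcription, with samples taken at 0, 1, 3 and 6 h. Each of the 12 groups had 2 libraries; the submitters call them biological replicates, but the labels do not say whether separate cultures were grown, and p-values therefore cover only the spread between these libraries.

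Hepatocytes secrete most of the proteins of the clotting and complement cascades. In clotting, proteases activate one another in steps that end in thrombin, which turns fibrinogen into fibrin, while serpins and protein C restrain the cascade and plasmin dissolves the clot. Complement is started by pattern recognition on a surface, converges on the cleavage of C3, and ends in a pore built from C5b to C9.

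The hairpins were checked first. SETD2 RNA at 0 h was 130.5 and 128.7 CPM (counts scaled to library total with TMM factors) in the shCtrl libraries and 90.4 and 81.7 in the shSETD2 libraries (log2 -0.59, SE 0.0646, adjusted p 1.203e-07). METTL14 RNA was 29.3 and 30.0 CPM in shCtrl and 15 and 13.9 in shMETTL14 (log2 -1.03, SE 0.0992, adjusted p 1.259e-08). In the shSETD2 line METTL14 RNA was higher than in shCtrl, at 38.0 and 38.6 CPM (log2 0.37, adjusted p 0.0026). Library totals ran from 18.3M to 31.4M counts (M, 1e6), so that 3 counts correspond to 0.0936 to 0.196 CPM. Mitochondrial genes took 4.56% to 8.9% of the counts. Each adjusted p is from edgeR's quasi-likelihood F test with Benjamini-Hochberg adjustment over all tested genes, and a gene was called at an adjusted p under 0.05.

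The promoters of the 3 fibrinogen genes are shown because these genes lie side by side on chromosome 4 and moved together, and those of PLG, F13B and HRG because they had among the largest differences in the shSETD2 line. Each is the 250 bases before the RefSeq start site (GRCh38.p14), 5′ to 3′ on the gene's strand, at chr4:154590743-154590992 (FGA, minus), chr4:154562730-154562979 (FGB, plus), chr4:154612657-154612906 (FGG, minus), chr6:160701994-160702243 (PLG, plus), chr1:197067261-197067510 (F13B, minus) and chr3:186665764-186666013 (HRG, plus). For FGB and PLG, which have 2 listed start sites, 1 is shown (for PLG the window with more marked matches). Capitals mark GTTAAT, one arm of the site of the liver factor HNF1, or CTGGGAA, a type II interleukin 6 response element, on either strand (ATTAAC and TTCCCAG on the other).
FGA: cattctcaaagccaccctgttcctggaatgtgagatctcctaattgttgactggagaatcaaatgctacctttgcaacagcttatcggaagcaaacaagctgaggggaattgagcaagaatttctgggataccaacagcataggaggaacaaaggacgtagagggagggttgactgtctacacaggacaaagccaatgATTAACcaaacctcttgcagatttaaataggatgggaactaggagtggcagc
FGB: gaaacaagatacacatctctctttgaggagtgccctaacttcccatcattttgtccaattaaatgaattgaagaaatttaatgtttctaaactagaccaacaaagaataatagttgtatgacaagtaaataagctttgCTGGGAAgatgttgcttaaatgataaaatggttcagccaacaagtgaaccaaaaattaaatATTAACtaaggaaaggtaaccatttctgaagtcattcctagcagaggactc
FGG: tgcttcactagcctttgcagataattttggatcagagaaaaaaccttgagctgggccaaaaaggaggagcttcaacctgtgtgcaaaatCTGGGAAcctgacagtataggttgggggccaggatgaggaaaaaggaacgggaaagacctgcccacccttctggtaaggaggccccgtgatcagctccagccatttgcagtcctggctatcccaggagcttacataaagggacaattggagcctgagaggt
PLG: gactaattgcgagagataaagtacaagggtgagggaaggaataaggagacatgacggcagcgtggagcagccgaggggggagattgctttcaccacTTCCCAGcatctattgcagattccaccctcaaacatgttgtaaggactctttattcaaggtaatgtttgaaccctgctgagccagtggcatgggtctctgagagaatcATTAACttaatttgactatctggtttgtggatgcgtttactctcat
F13B: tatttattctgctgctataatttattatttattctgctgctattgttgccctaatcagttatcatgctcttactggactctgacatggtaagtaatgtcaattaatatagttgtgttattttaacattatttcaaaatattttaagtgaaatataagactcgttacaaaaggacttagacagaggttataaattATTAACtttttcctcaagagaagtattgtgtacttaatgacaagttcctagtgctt
HRG: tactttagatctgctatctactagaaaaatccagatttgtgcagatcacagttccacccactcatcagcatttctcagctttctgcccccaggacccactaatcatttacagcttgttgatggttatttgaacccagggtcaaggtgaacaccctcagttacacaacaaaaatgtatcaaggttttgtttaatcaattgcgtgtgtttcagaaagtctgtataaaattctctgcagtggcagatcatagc

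GTTAAT begins 52 bases before the start in FGA, 51 in FGB, 46 in PLG and 56 in F13B, and the windows of FGG and HRG hold none. The table of RefSeq promoters used here matched 35 of the 42 members. GTTAAT occurred in 11 of them (31.4%) against 7.5% of the 27305 genes in that table, and CTGGGAA in 7 (20%) against 11.1%. The loose C/EBP pattern TTNNGNAA was in 22 (62.9%) against 38.1%, and the TATA box TATAAA in 3 (8.57%) against 13%. CAAAGTCCA, an HNF4 pattern, was in 1 (2.86%) against 0.403%. TTGCGCAA, a strict form of the C/EBP pattern, and the full HNF1 palindrome, which contains GTTAAT, were in 0, against 0.146% and 0.00732%. Both strands were searched, and a match is a string of letters, not a bound site.

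Before the drug the members spanned the range from some of the most abundant RNAs of the cell to nearly no counts. In the shCtrl libraries their RPKM (reads scaled to exon length and library total, as deposited) ordered them from A2M at 582.8, rank 32 among all genes, through C3 at 352.3, FGG at 311.6, FGA at 279.1, FGB at 197.7 and F2 at 119, to KLKB1 at 0.0134 and C9 at 0.00766. F9 was listed at 0 RPKM in both shCtrl libraries. The number of members over 100 RPKM was 7 in shCtrl and 10 in each knockdown line. In shCtrl 9 pairs of neighbours in this order overlapped between libraries, among them SERPIND1 and CPB2, PROS1 and SERPINC1, and PROZ and KNG1. Together the members took 1.22% and 1.23% of all counts in the shCtrl libraries at 0 h, 1.84% in both shSETD2 libraries, and 2.01% and 1.98% in the shMETTL14 libraries.

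**Figure D1:**
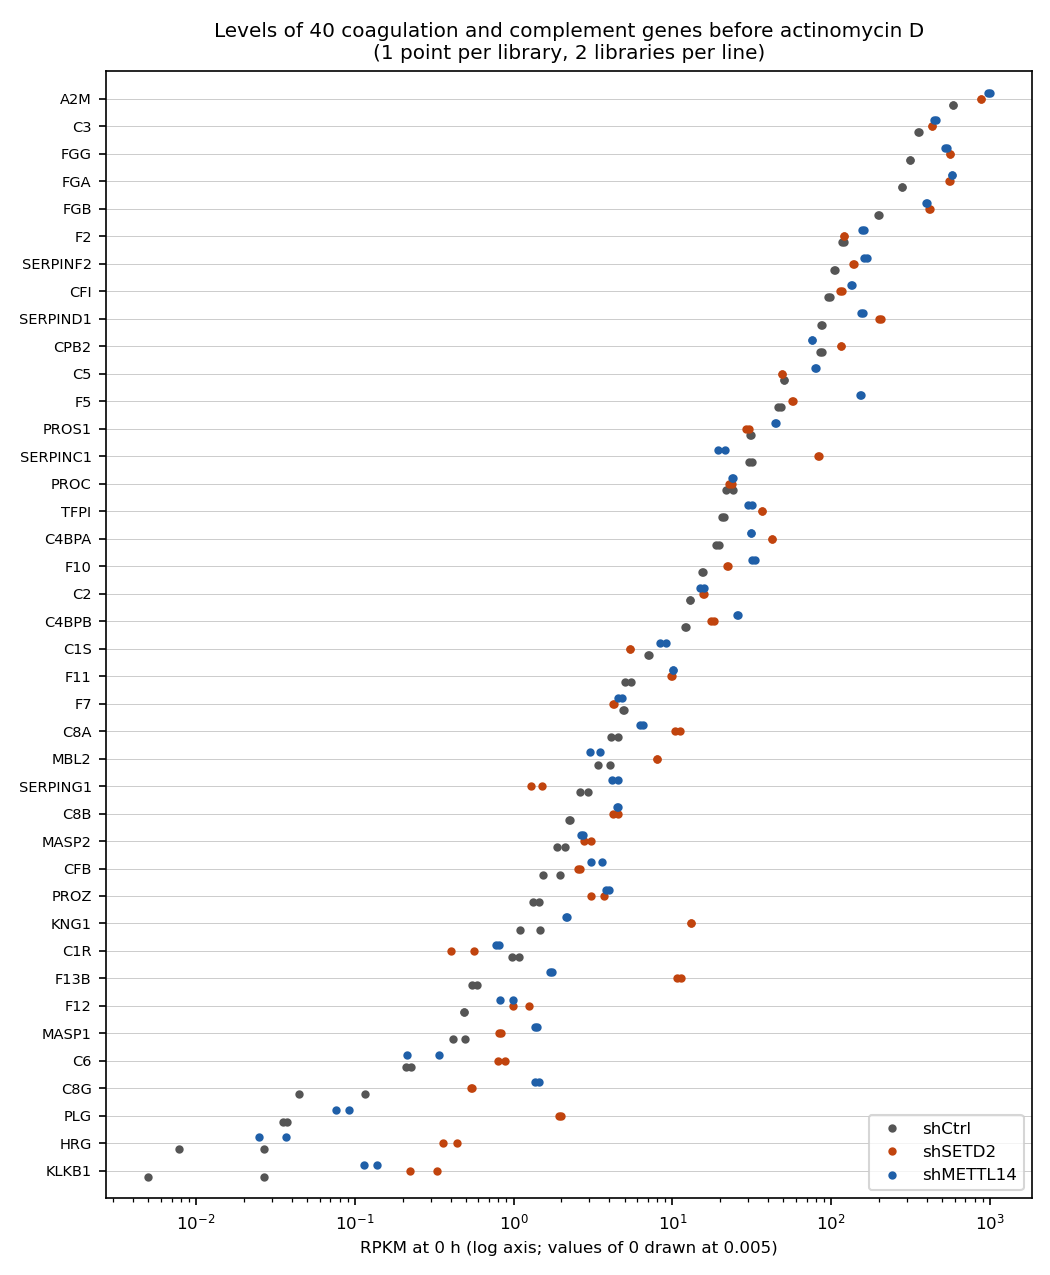
RPKM at 0 h (log axis) of 40 members in the 3 lines, 1 point per library. A2M stands highest in every line, a value of 0 (KLKB1 in 1 shCtrl library) is drawn at the left edge, and PLG, HRG, KNG1 and F13B are set apart by their shSETD2 points.

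The label was compared with markers of the cells the culture could hold. All 10 hepatocyte markers were detected, with a summed RPKM at 0 h of 11889 and 12196 in shCtrl, 21725 and 21660 in shSETD2, and 14013 and 13835 in shMETTL14. All 10 were higher in shSETD2 than in shCtrl, and 7 were higher and 1 (AFP) lower in shMETTL14. ALB, the secreted albumin, was higher by log2 1.88 (SE 0.0349) and 0.58 (SE 0.0339). The hepatocyte markers thus moved with the members, and their part in the results was not tested. Of 6 endothelial markers 5 were in the table, with EMCN, KDR and TEK at 0 at 0 h and a summed RPKM of at most 0.224. VWF had 2 and 0 counts in shCtrl, 17 and 17 in shSETD2, and 20 and 15 in shMETTL14. CDH5 had at most 24 counts in any library at 0 h. The fibroblast markers COL1A2 and DCN and the blood markers HBB, MARCO, PF4, PPBP and PTPRC were at 0 in every line at 0 h. The fibroblast sum was 12.5 to 15.5 RPKM and the blood sum 1.33 to 2.3 RPKM over the lines. In shCtrl, shSETD2 and shMETTL14 mean RPKM was 12.8, 10.6 and 8.81 for ACTA2, and 1.41, 1.41 and 3.75 for PDGFRB. It was 0.52, 0.95 and 0.86 for COL1A1, and 1.44, 0.19 and 1.03 for CD3D. CD14 had 0.60, 0.95 and 1.02, and CD68 0.18, 0.25 and 0.17. COL3A1, LUM and CD163 had at most 4 counts in any library at 0 h. In bulk libraries more cells that express a gene and more RNA per cell cannot be told apart.

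Most members were higher in both knockdown lines than in shCtrl at 0 h. In shSETD2 33 of 40 were higher, where 21.6% of all tested genes were called higher, and 3 were lower (C1R, C1S and SERPING1), where 18.9% were called lower. In shMETTL14 31 were higher (23.1% of all genes) and 2 lower (SERPINC1 and CPB2; 25.1%). The median difference of the members was log2 0.99 in shSETD2 and 0.68 in shMETTL14, against 0.02 and -0.01 over all genes. In shSETD2 20 members exceeded a difference of 1 on the log2 scale, as did 5.87% of genes; in shMETTL14 9 did, against 7.89%. Both comparisons use the same 2 shCtrl libraries, so they are not independent of each other. Leaving out shCtrl replicate 2 or shMETTL14 replicate 2 at 0 h raised the count lower in shMETTL14 to 5 and 4.

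**Figure D2:**
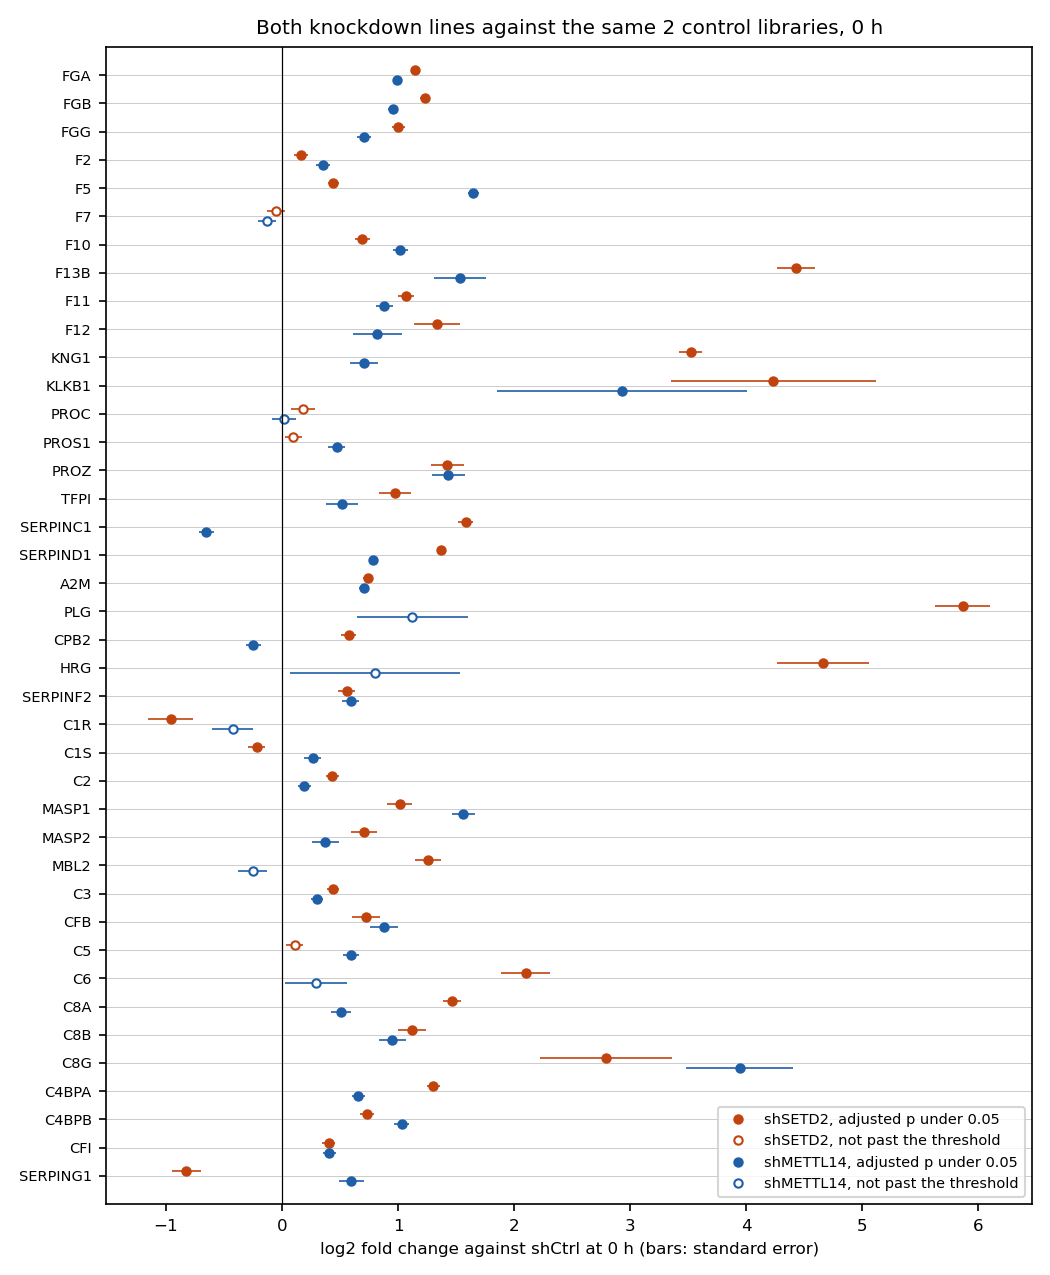
Log2 fold change of each member against shCtrl at 0 h in the shSETD2 and shMETTL14 lines, with standard error bars. PLG, HRG, F13B, KLKB1 and KNG1 reach the largest values in shSETD2, and SERPINC1, CPB2, C1S and SERPING1 lie on opposite sides of 0 in the 2 lines.

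The 3 chains of fibrinogen, the precursor of fibrin, rose in both lines. FGA (ENSG00000171560; GRCh37 chr4:155504278-155511918), the alpha chain, stood at 958 and 967 CPM in shCtrl, 2128 and 2147 in shSETD2, and 1928 and 1907 in shMETTL14. Its difference was log2 1.15 (SE 0.035, adjusted p 4.819e-17) in shSETD2 and 0.99 (SE 0.0349, adjusted p 6.955e-16) in shMETTL14. FGB (ENSG00000171564; chr4:155484108-155492238), the beta chain, stood at 465 and 469 CPM in shCtrl, 1095 and 1104 in shSETD2, and 914 and 900.4 in shMETTL14. No library of either knockdown line overlapped a shCtrl library for these chains. FGG, the gamma chain, rose by log2 1.00 and 0.71. FGB was higher in shSETD2 than in shMETTL14 by log2 0.28 (SE 0.0414, adjusted p 6.574e-06), and FGA and FGG by 0.16 and 0.29. With library size alone or limma none of these 3 differences between the knockdown lines was called, and that of FGA was -0.05.

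Among the clotting factors F5 and F13B gave the largest differences, each in another line. F5 (ENSG00000198734; chr1:169483404-169555826) encodes factor V, the cofactor of the enzyme that makes thrombin. It stood at 299.9 and 286.8 CPM in shCtrl, 403 and 394 in shSETD2, and 930.0 and 911 in shMETTL14. That is a rise of log2 0.44 (SE 0.0453, adjusted p 4.123e-08) in shSETD2 and of 1.65 (SE 0.046, adjusted p 1.222e-17) in shMETTL14, and the knockdown lines differed by log2 -1.21 (SE 0.0453, adjusted p 1.102e-15). F13B (ENSG00000143278; chr1:197008321-197036397) encodes the carrier subunit of factor XIII, which crosslinks fibrin. Its level was 1.26 and 1.17 CPM in shCtrl, 26.9 and 25.5 in shSETD2, and 3.49 and 3.56 in shMETTL14. The rise was 21.5-fold (log2 4.43, SE 0.165, adjusted p 1.217e-15) in shSETD2 and 2.89-fold (log2 1.53, SE 0.221, adjusted p 5.033e-06) in shMETTL14, and the lines differed by log2 2.89 (SE 0.133, adjusted p 4.398e-14).

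The other factors moved less. F10, which cleaves prothrombin, rose by log2 0.69 and 1.02 in shSETD2 and shMETTL14. F2, prothrombin, rose by 0.36 in shMETTL14 and by 0.17 in shSETD2 (adjusted p 0.0325). That last call was lost without any 1 of the 6 libraries at 0 h and under 6 other settings, with an adjusted p of up to 0.913. F7, which starts the extrinsic pathway, was called in neither line (log2 -0.05 and -0.13, adjusted p 0.613 and 0.172). F9, factor IX, was not tested: its counts summed to 1 over the 8 shCtrl libraries, to 25 over the shSETD2 libraries (7 of 8 libraries with a count) and to 1 over the shMETTL14 libraries. On chromosome 13 F7, F10 and PROZ are neighbours, and F7 was the one of them that was not called in either line.

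The contact system starts clotting on foreign surfaces. KNG1 (ENSG00000113889; chr3:186435065-186461743) encodes kininogen, the source of bradykinin, and stood at 4.78 and 3.55 CPM in shCtrl, 47.7 and 47.5 in shSETD2, and 6.67 and 6.8 in shMETTL14. Its rise was 11.5-fold (log2 3.52, SE 0.1, adjusted p 1.52e-17) in shSETD2 and 1.63-fold (log2 0.70, SE 0.122, adjusted p 4.963e-05) in shMETTL14, a difference between the lines of log2 2.82 (SE 0.0913, adjusted p 1.014e-16). F11, factor XI, stood at 18.5 and 20.2 CPM in shCtrl, 41.3 and 40.2 in shSETD2 and 35.9 and 35.7 in shMETTL14, a rise of log2 1.07 (SE 0.07, adjusted p 2.26e-11) and 0.88 (SE 0.07, adjusted p 5.748e-10). KLKB1, prekallikrein, lies next to F11 and had 0 and 2 counts in the shCtrl libraries, 19 and 23 in shSETD2, and 11 and 8 in shMETTL14. Scaled for depth its summed counts gave a ratio of 21.2 (exact 95% counting interval 5.52 to 181) in shSETD2 and 8.54 (2.06 to 75.6) in shMETTL14, and the shMETTL14 call (adjusted p 0.0289) was lost without shCtrl replicate 1 or either shMETTL14 library at 0 h, with an adjusted p of up to 0.244. F12, factor XII, rose by log2 1.34 in shSETD2 and 0.82 in shMETTL14, the latter with an adjusted p of 0.0664 without shMETTL14 replicate 2. Reads of F12 and KLKB1 may be shared with the overlapping genes GRK6 and CYP4V2.

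Among the anticoagulants the members split. SERPINC1 (ENSG00000117601; chr1:173872947-173886516) encodes antithrombin, the main inhibitor of thrombin and activated factor X. It stood at 46.5 and 48.4 CPM in shCtrl, 140.8 and 143.4 in shSETD2, and 28.7 and 31.8 in shMETTL14. The level rose 2.99-fold in shSETD2 (log2 1.58, SE 0.0609, adjusted p 2.105e-15) and fell 1.57-fold in shMETTL14 (log2 -0.65, SE 0.0645, adjusted p 2.138e-08). No libraries of the 3 lines overlapped, and the knockdown lines differed by log2 2.23 (SE 0.063, adjusted p 1.033e-17). SERPIND1, heparin cofactor II, stood at 193.5 and 194.1 CPM in shCtrl, 510.1 and 492.9 in shSETD2, and 339.2 and 329.2 in shMETTL14, a rise in both lines (log2 1.37, SE 0.0399, adjusted p 2.231e-17, and 0.79, SE 0.0396, adjusted p 2.859e-13); it overlaps PI4KA on the other strand.

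A2M, the broad protease inhibitor alpha-2-macroglobulin, stood at 3245 CPM in both shCtrl libraries, 5422 and 5426 in shSETD2, and 5358 and 5220 in shMETTL14. It rose by log2 0.74 and 0.70. PROZ, the cofactor of an inhibitor of activated factor X, rose by 1.43 in each line. TFPI, the inhibitor of the tissue factor pathway, rose by 0.98 and 0.52. The TFPI call in shMETTL14 was lost without either shCtrl library or shMETTL14 replicate 2 at 0 h (adjusted p up to 0.0987). PROS1, the cofactor of protein C, rose by log2 0.47 in shMETTL14 and was 0.10 above shCtrl in shSETD2 (adjusted p 0.316), and the lines differed by -0.37 (SE 0.0752, adjusted p 0.0002379). PROC, protein C itself, was called in neither line (0.18 and 0.01, adjusted p 0.174 and 0.922).

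The genes of fibrinolysis, the removal of the clot, held the largest difference of all members. PLG (ENSG00000122194; chr6:161123270-161174347) encodes plasminogen, the precursor of plasmin. Its counts at 0 h were 5 and 6 in shCtrl, 363 and 288 in shSETD2, and 13 and 14 in shMETTL14. In CPM that was 0.198 and 0.207, 12.3 and 11.9, and 0.406 and 0.494. The rise in shSETD2 was log2 5.86 (SE 0.236, adjusted p 4.053e-15), and the summed counts gave a ratio of 59.8 (exact 95% counting interval 33.2 to 120). In shMETTL14 the difference of log2 1.12 was not called (adjusted p 0.0583; count ratio 2.21, interval 1.06 to 4.93), and the lines differed by log2 4.74 (SE 0.197, adjusted p 5.99e-15). HRG, histidine-rich glycoprotein, which binds plasminogen and heparin, lies next to KNG1 on chromosome 3. HRG had 3 and 1 counts in shCtrl, 64 and 43 in shSETD2, and 5 and 3 in shMETTL14. Its count ratio was 27 (10.2 to 101) in shSETD2 and 1.8 (0.482 to 8.16) in shMETTL14, where it was not called. The filter may have passed HRG only through the shSETD2 line, so its ratio there is a description.

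The inhibitors of fibrinolysis changed less. CPB2 (ENSG00000080618; chr13:46627321-46679211) encodes a carboxypeptidase that protects fibrin, and stood at 131.6 and 134.1 CPM in shCtrl, 198.9 and 197.2 in shSETD2, and 111.9 in both shMETTL14 libraries. It rose by log2 0.58 (SE 0.0641, adjusted p 1.539e-07) in shSETD2 and fell in shMETTL14 (log2 -0.25, SE 0.0647, adjusted p 0.00297), with no overlap of the 3 lines. SERPINF2, the plasmin inhibitor, stood at 213.0 and 216.3 CPM in shCtrl, 315.1 and 317.1 in shSETD2, and 331 and 316.2 in shMETTL14. It rose by log2 0.56 (SE 0.0744, adjusted p 2.612e-06) and 0.59 (SE 0.0743, adjusted p 8.784e-07).

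**Figure D3:**
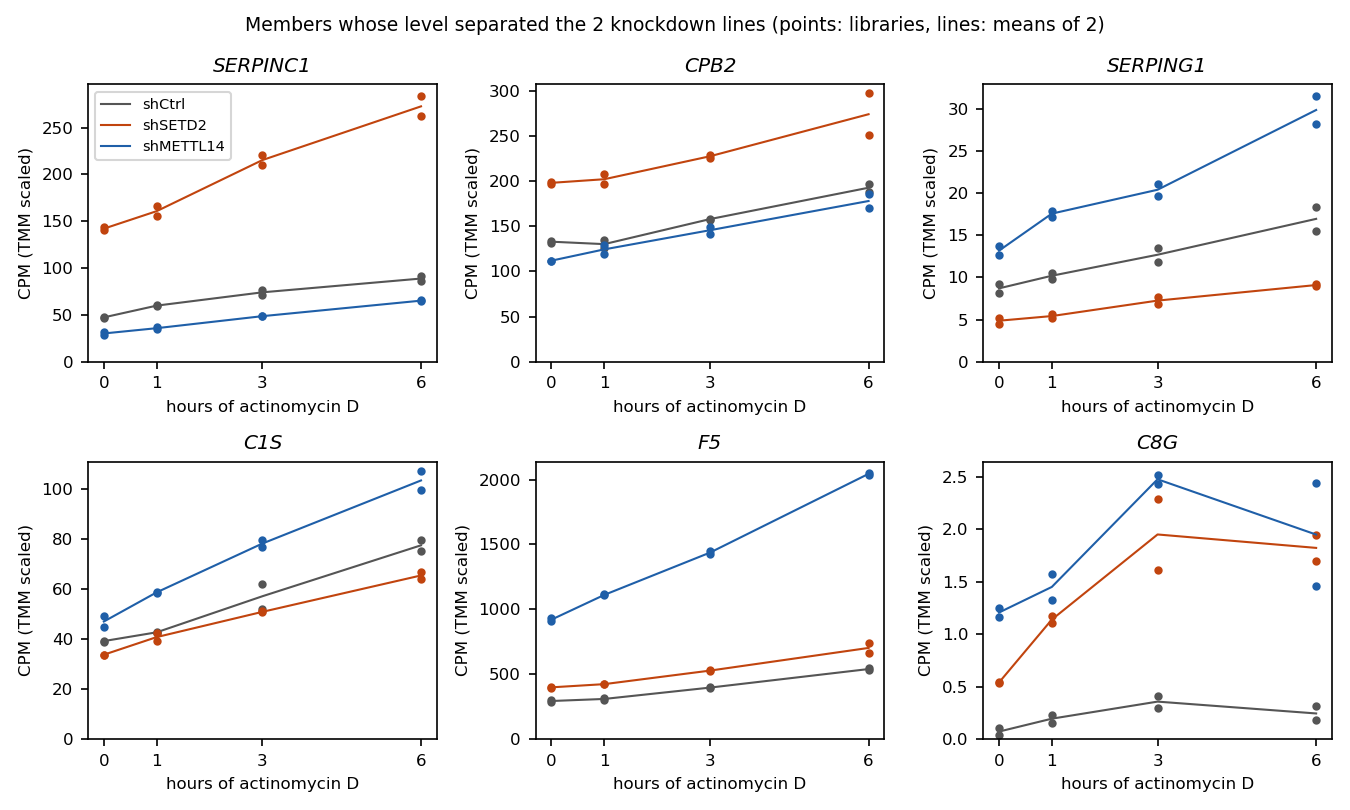
CPM over the time course of members whose level separated the 2 knockdown lines, with points for libraries and lines for means of 2. SERPINC1 and CPB2 stand highest in shSETD2 and lowest in shMETTL14 at 0 h, and SERPING1 stands lowest in shSETD2 and highest in shMETTL14.

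The genes that start complement split in shSETD2. C1R and C1S were lower there (18.9% of all genes), and C2, MASP1, MASP2 and MBL2 were higher (21.6%). C1R and C1S encode the proteases of the C1 complex and are neighbours on chromosome 12. C1R stood at 4.46 and 3.96 CPM in shCtrl, 1.83 and 2.55 in shSETD2, and 3.18 and 3.07 in shMETTL14, lower by log2 -0.96 (SE 0.194, adjusted p 0.000369) in shSETD2 and not called in shMETTL14 (-0.43, adjusted p 0.0506). C1S stood at 38.9 and 39.4 CPM in shCtrl, 33.8 and 33.7 in shSETD2, and 49.1 and 44.9 in shMETTL14. It was lower in shSETD2 by log2 -0.22 (SE 0.0731, adjusted p 0.0214), which no longer passed when either 0 h shSETD2 library was left out (adjusted p up to 0.0866), and higher in shMETTL14 by 0.26 (SE 0.071, adjusted p 0.00385), lost without either shCtrl library or shMETTL14 replicate 1 (up to 0.401). The difference between the knockdown lines was log2 -0.48 (SE 0.0719, adjusted p 6.99e-06). C1R overlaps C1RL, and C1S overlaps LPCAT3 and EMG1, so their counts are uncertain.

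The lectin pathway genes had another pattern. MBL2, mannose-binding lectin, which recognises microbial sugars, stood at 12.6 and 10.6 CPM in shCtrl, 27.8 and 27.6 in shSETD2, and 9.11 and 10.4 in shMETTL14. It rose by log2 1.26 (SE 0.113, adjusted p 5.251e-09) in shSETD2, was not called in shMETTL14 (-0.25, adjusted p 0.101), and differed by 1.51 between them. MASP1, a protease bound to such lectins, stood at 5.29 and 4.41 CPM in shCtrl, 9.66 and 9.89 in shSETD2, and 14.4 and 14.1 in shMETTL14, and rose by log2 1.01 (SE 0.106, adjusted p 5.598e-08) and 1.56 (SE 0.0997, adjusted p 1.504e-11). MASP2, the lectin protease that cleaves C4 and C2, rose by 0.71 and 0.38, and C2 by 0.43 and 0.19. Both shMETTL14 calls were lost without any 1 of the 4 libraries of the comparison at 0 h, with an adjusted p of up to 0.302 for MASP2 and of up to 0.574 for C2, which DESeq2 did not call either.

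At the centre of the cascade C3 and CFB rose in both lines. C3 (ENSG00000125730; chr19:6677715-6730573) stood at 2545 and 2572 CPM in shCtrl, 3484 and 3474 in shSETD2, and 3186 and 3117 in shMETTL14, a rise of log2 0.44 (SE 0.0505, adjusted p 2.189e-07) and 0.30. CFB, factor B of the alternative pathway, rose by 0.73 and 0.88 and overlaps C2. C5, the start of the pore, stood at 287.0 and 288.5 CPM in shCtrl, 309.9 and 311.1 in shSETD2, and 437.0 and 432.1 in shMETTL14. It rose in shMETTL14 (log2 0.59, SE 0.0699, adjusted p 2.843e-07) and was not called in shSETD2 (0.11, adjusted p 0.227), with a difference between the lines of -0.49 (adjusted p 3.987e-06).

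The tested members that build the rest of the pore rose in shSETD2. C8A, the alpha chain of C8, stood at 8.49 and 9.31 CPM in shCtrl, 23.9 and 25.5 in shSETD2, and 12.98 and 12.4 in shMETTL14. It rose by log2 1.47 (SE 0.0803, adjusted p 9.767e-13) and 0.51. Its neighbour C8B rose by 1.12 and 0.95. C8G (ENSG00000176919; chr9:139839698-139841426), the gamma chain, had 1 and 3 counts in shCtrl, 16 and 13 in shSETD2, and 40 and 33 in shMETTL14, a count ratio of 7.32 (exact 95% counting interval 2.57 to 28.7) and 16.4 (6.14 to 61.8), and was lower in shSETD2 than in shMETTL14 by log2 -1.16 (adjusted p 0.00216). C6 rose by log2 2.10 (SE 0.21, adjusted p 2.941e-08) in shSETD2 and was not called in shMETTL14 (0.29, adjusted p 0.381). C9 was not tested, with 1, 2 and 2 counts in all over the libraries of shCtrl, shSETD2 and shMETTL14.

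Of the complement regulators SERPING1 changed in opposite directions. SERPING1 (ENSG00000149131; chr11:57364860-57382326) encodes the C1 inhibitor, which restrains C1R, C1S and the contact system. It stood at 9.21 and 8.21 CPM in shCtrl, 5.25 and 4.49 in shSETD2, and 12.7 and 13.7 in shMETTL14. It fell 1.77-fold in shSETD2 (log2 -0.83, SE 0.125, adjusted p 1.261e-05) and rose 1.51-fold in shMETTL14 (log2 0.60, SE 0.107, adjusted p 7.19e-05), and the lines differed by log2 -1.43 (SE 0.117, adjusted p 8.518e-10). No libraries of the 3 lines overlapped.

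C4BPA and C4BPB encode the chains of the C4b-binding protein and are neighbours on chromosome 1. C4BPA stood at 39.9 and 41.6 CPM in shCtrl, 100.4 and 100.9 in shSETD2, and 64.3 in both shMETTL14 libraries, a rise of log2 1.30 (SE 0.0544, adjusted p 8.026e-15) and 0.66. C4BPB stood at 33.5 and 34.2 CPM in shCtrl, 57.6 and 55 in shSETD2, and 70.02 and 68.4 in shMETTL14, a rise of 0.73 and 1.03 (SE 0.0624, adjusted p 6.178e-12 for shMETTL14). The alpha chain was thus higher in shSETD2 than in shMETTL14 (log2 0.65) and the beta chain lower (-0.30, adjusted p 0.0002421). CFI, the protease that degrades C3b, rose by 0.40 and 0.41.

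Set against each other, 21 members were higher and 11 lower in shSETD2 than in shMETTL14, where 29.2% and 23% of all genes were called. This split depended on the scaling: with library size alone the median of all genes moved from log2 0.03 to -0.18, and 11 members were higher and 15 lower. FGA, F11 and C3 then had values of -0.05, -0.02 and -0.07, still above the median of all genes. The shSETD2 minus shMETTL14 differences at 0 h of F5, F13B, KNG1, SERPINC1, PLG, CPB2 (log2 0.82), MBL2, C1S, SERPING1, C5 and C8A (log2 0.96) kept their sign and their call under all 34 alternative settings run at 0 h, except where a setting's filter left the gene untested.

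Under actinomycin D the members rose against the rest of the RNA on the TMM scale. The slope of the group means on hours was above 0 and called in 35 of 40 members in shCtrl (37.8% of all genes), in 39 in shSETD2 (34.2%) and in 40 in shMETTL14 (38.2%; 33 with library size alone and 32 or 33 with limma). None was called below 0 in any line, against 33.2%, 36.2% and 34.8% of genes, although library size alone gave 1 in shCtrl and 1 in shSETD2. The members' median slope was log2 0.144, 0.138 and 0.169 per h, and that of all genes 0.0132, -0.0013 and 0.0105. The members took 1.82% and 1.76% of all counts in shCtrl at 6 h, 2.72% and 2.66% in shSETD2, and 3.08% and 2.99% in shMETTL14. A rise was not particular to the members, since the summed RPKM of the 10 hepatocyte markers also rose from 0 h to 6 h. In shCtrl that sum went from 11889 and 12196 to 18818 and 18985. It went from 21725 and 21660 to 32951 and 33484 in shSETD2, and from 14013 and 13835 to 22232 and 22129 in shMETTL14. The labels mention a spike-in, but no spike-in rows were in the count table. A rise here is therefore relative to the other RNA and not in molecules per cell. Slopes and folds are TMM scaled and are not plain shares of the counts. From 0 h to 6 h the TMM factors fell from 1.14 and 1.15 to 0.896 and 0.903 in shCtrl. They fell from 1.03 to 0.845 and 0.838 in shSETD2, and from 1.19 to 0.881 and 0.873 in shMETTL14. Falling factors raise the scaled slope of every gene.

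**Figure D4:**
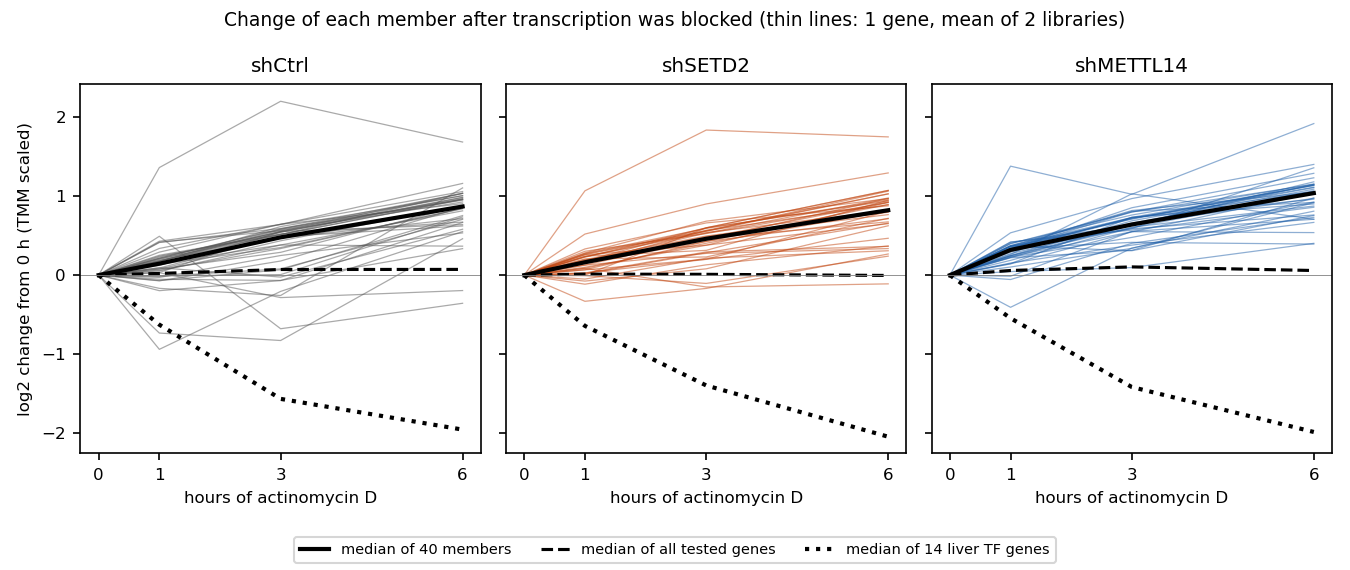
Log2 change from 0 h at 1, 3 and 6 h of actinomycin D in each line, with 1 thin line per member, the members' median (solid), the median of all tested genes (dashed) and that of 14 liver transcription factor genes (dotted). The members' median rises while that of all genes stays near 0 and that of the transcription factors falls.

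The rise built up over the hours. The members' median fold over 0 h was 1.11, 1.39 and 1.83 at 1, 3 and 6 h in shCtrl, 1.12, 1.38 and 1.77 in shSETD2, and 1.25, 1.56 and 2.06 in shMETTL14. These contrasts of single times were chosen after the data were seen. In shCtrl 13, 27 and 35 members were called higher than at 0 h (13.8%, 33% and 36.9% of all genes), in shSETD2 15, 31 and 37 (12.6%, 29.1% and 33.6%), and in shMETTL14 25, 35 and 39 (23.1%, 36.5% and 37.6%). From 3 to 6 h alone 28, 29 and 27 members were higher (18.8%, 19.2% and 17.7% of all genes), and 0 lower (19.8%, 19.9% and 21.8%). C6 was the one member called lower at any time (shCtrl at 3 h, log2 -0.83, adjusted p 0.0374; 28.1% of all genes).

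The time course differed between members. FGA went from 958 and 967 CPM at 0 h to 1094 and 1076, 1441 and 1393, and 2011 and 1943 CPM at 1, 3 and 6 h in shCtrl, a slope of log2 0.174 per h (SE 0.00527, adjusted p 4.43e-18). In shMETTL14 it reached 4029 and 3944 CPM (0.169, SE 0.00525, adjusted p 5.358e-18) and in shSETD2 3761 and 3715 (0.135, SE 0.00526, adjusted p 3.287e-16). C3 rose as steadily, from 2545 and 2572 CPM through 3902 and 3786 at 3 h to 5470 and 5028 at 6 h in shCtrl. Its slopes were log2 0.171, 0.168 and 0.181 per h in shCtrl, shSETD2 and shMETTL14. A2M instead was flat in shCtrl for the first hours, at 3188 and 3233 CPM at 1 h and 3486 and 3369 at 3 h, and stood at 5495 and 5101 CPM at 6 h. The step from 3 to 6 h was log2 0.63, while those from 0 h to 1 and 3 h were not called (-0.02 and 0.08). F11 had the same shape, with log2 -0.07, 0.07 and 0.76 over 0 h. C4BPB did the opposite, with 0.38 at 3 h, 0.37 at 6 h and no called step between (-0.01, adjusted p 0.887).

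The other members with the smallest p of their role rose in each line they are given for. Slopes in shCtrl, shSETD2 and shMETTL14 were log2 0.152, 0.140 and 0.188 per h for F5, 0.145, 0.149 and 0.177 for SERPIND1, 0.139, 0.159 and 0.165 for SERPINF2, 0.155, 0.166 and 0.182 for C2, 0.178, 0.131 and 0.143 for C8A, and 0.170, 0.163 and 0.184 for C4BPA. F11 had 0.132 in shCtrl and 0.154 in shMETTL14, and KNG1 0.153 in shSETD2. The largest adjusted p among these values was 3.081e-10 (F11 in shCtrl). Of the 5 members not called in shCtrl, KLKB1, PLG, HRG and C8G had at most 11 counts in any shCtrl library. The fifth was MASP2, with a slope of log2 -0.04 in shCtrl (adjusted p 0.0801), -0.03 in shSETD2 (adjusted p 0.168) and 0.05 in shMETTL14 (adjusted p 0.0116). The last value turned to -0.02 with library size alone and to -0.01 and -0.02 with limma (pseudocount 1 and 0.1), and was then not called. The MASP1 slopes, called above 0 in each line, were also below 0 under these settings.

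**Figure D5:**
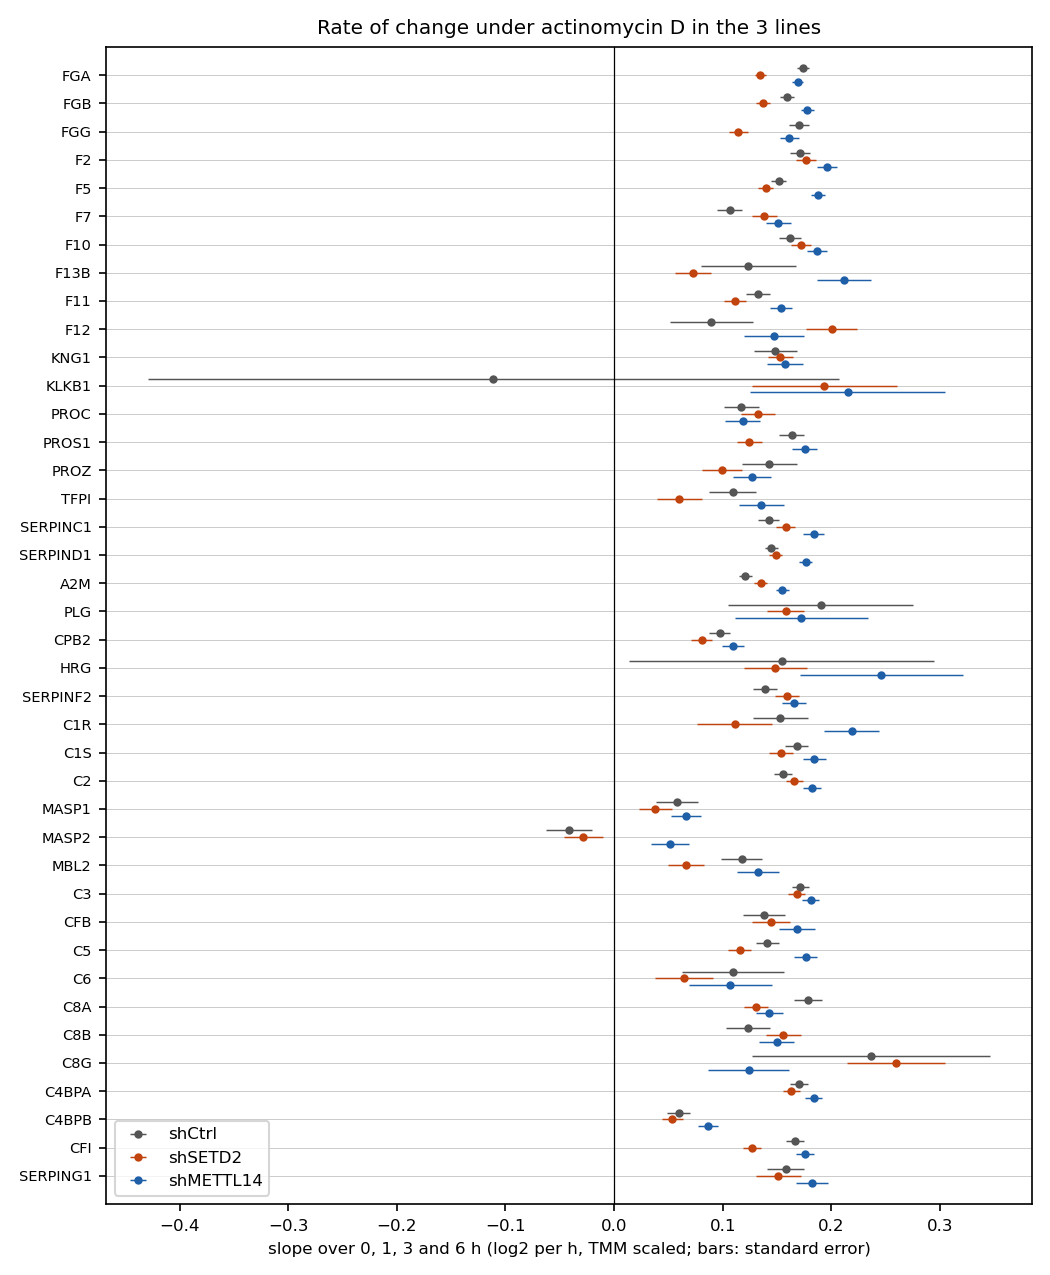
Slope of log2 level on hours of actinomycin D for each member and line, with standard error bars. Most slopes lie between 0.1 and 0.2 log2 per h, with MASP1, MASP2 and C4BPB nearest to 0 and a wide bar for KLKB1 in shCtrl, which has few counts.

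Few slopes differed between lines. Against shCtrl 3 members had a lower slope in shSETD2 (6.45% of all genes) and 0 a higher one (1.49%), and 4 had a higher slope in shMETTL14 (1.85%) and 0 a lower one (3.35%). At an unadjusted p under 0.05 the counts of 0 were 1 (F12) and 0. The 3 in shSETD2 were FGG (log2 -0.06 per h, SE 0.0127, adjusted p 0.00909), FGA (-0.04, SE 0.00754, adjusted p 0.0024) and CFI (-0.04, adjusted p 0.0457). These counts rested on single libraries and on the scaling: 0 members were lower without either shCtrl or either shMETTL14 library at 0 h, 1 without shCtrl replicate 2 at 6 h, 10 without shSETD2 replicate 2 at 6 h, and 0 with RLE or upper quartile scaling or with DESeq2.

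The 4 with a higher slope in shMETTL14 were A2M (log2 0.03 per h, SE 0.00888, adjusted p 0.0243), SERPIND1 (0.03, adjusted p 0.0296), F5 (0.04, adjusted p 0.0305) and MASP2 (0.09, adjusted p 0.0482). With library size alone 0 were called. Without either library of shCtrl at 0 h 11 and 9 were called, and without either of shMETTL14 at 0 h 12 and 9. Leaving out shMETTL14 replicate 2 at 1 h or replicate 1 at 6 h gave 0, leaving out replicate 2 of shCtrl or of shMETTL14 at 6 h gave 1, and leaving out either shCtrl library at 1 h, shCtrl replicate 1 at 6 h, shMETTL14 replicate 1 at 1 h or replicate 2 at 3 h gave 2.

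Between the knockdown lines 9 members had a lower slope in shSETD2 than in shMETTL14 (6.4% of all genes) and 0 a higher one (3.2%; 1, C8G, at an unadjusted p under 0.05). F13B had the largest difference, log2 -0.14 per h (SE 0.0295, adjusted p 0.00424). Its level went from 3.49 and 3.56 to 8.64 and 8.63 CPM in shMETTL14, and from 26.9 and 25.5 to 28.9 and 39.2 in shSETD2, where the 6 h libraries lay above those at 0 h. That difference kept its call in all but 1 of the 35 alternatives that tested it, the exception being the slope over 0, 1 and 3 h (highest adjusted p 0.0567). F5 (-0.05, adjusted p 0.00275), FGA, FGB, FGG, C5, CFI, SERPIND1 and MASP2 were the others. The count fell to 3 without either shCtrl library at 0 h, to 2 without either shMETTL14 library at 0 h, to 4 without shMETTL14 replicate 2 at 6 h, and to 1 with library size alone.

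The differences between lines at 0 h were also present later. Against shCtrl 32, 32 and 34 members were higher in shSETD2 at 1, 3 and 6 h (21.6%, 17.9% and 17% of all genes) and 33, 34 and 32 in shMETTL14 (25.9%, 25.6% and 22.7%). Lower were 2, 2 and 3 in shSETD2 (19.8%, 25.3% and 23.9%) and 1 at each time in shMETTL14 (22.6%, 25.3% and 26.4%). The median fold was 1.86, 1.81 and 1.76 in shSETD2 and 1.75, 2.01 and 1.76 in shMETTL14. SERPINC1 was higher in shSETD2 by log2 1.42, 1.54 and 1.62 and lower in shMETTL14 by log2 -0.74, -0.61 and -0.45. SERPING1 was lower in shSETD2 by -0.90, -0.81 and -0.90 and higher in shMETTL14 by 0.79, 0.68 and 0.81. C1R was lower in shSETD2 by -0.68, -0.91 and -1.10. CPB2 was called lower in shMETTL14 at 0 h and at no later time (-0.07, -0.12 and -0.12).

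The authors' deposited table of half-lives holds 7772 rows, and MASP1 and MASP2 are the members in it. The authors' deposited table gives MASP1 58.98 h in shCtrl, 15.4 h in its METTL14 column and 10.9 h in its SETD2A column, and MASP2 9.95, 12.7 and 6.47 h. Its medians over all rows were 6.02, 4.31 and 4.13 h. A half-life describes decay, whereas TMM-scaled MASP1 slopes were called above 0 in shCtrl, shSETD2 and shMETTL14 (log2 0.058, 0.038 and 0.066 per h). The MASP2 slope was called above 0 in shMETTL14 (0.051). The half-lives and these slopes may be on unlike scales, which was not tested. The 2 members are 5% of the 40 tested, whereas 7711 of all 14887 tested genes (51.8%) were in the table. Of the genes with a slope below 0 in all 3 lines 91% were in it, and of the others 25.2%; no tested member had a slope below 0 in all 3 lines.

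Other genes of the same pathways were given by lists, whose counts stand against 21.6% of all genes called higher and 18.9% lower in shSETD2, and 23.1% higher and 25.1% lower in shMETTL14. Of 20 tested genes of coagulation outside the members (tissue factor, receptors, plasminogen activators, vitamin K enzymes) 8 were higher and 4 lower (F2R, F2RL1, F3 and SERPINE2) in shSETD2, and 11 were higher in shMETTL14. SERPINA10, the partner of PROZ, was higher by log2 1.22 in shSETD2 (adjusted p 4.483e-12), and SERPINE2, protease nexin 1, was lower there by -0.84 (adjusted p 4.657e-12). Of 12 tested complement genes outside the members 4 were higher (C4A, C4B, CD46 and VTN) and 3 lower (C5AR1, C7 and CD55) in shSETD2, and 5 were higher (C1RL, C4A, C4B, CD59 and VTN) and 3 lower (C1QBP, C5AR1 and CD55) in shMETTL14. VTN, vitronectin, was higher by log2 1.09 in each line (adjusted p 1.587e-11 in shSETD2). C4A and C4B are near-identical copies whose reads cannot be assigned with certainty.

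Against the same shares of all genes, of 13 tested genes of the acute phase and interleukin 6 signalling 3 were higher (CEBPD, HP and SAA4) and 1 lower (CEBPB) in shSETD2, and 6 were higher and 3 lower (CEBPB, ORM1 and ORM2) in shMETTL14. IL6R, the interleukin 6 receptor, rose by log2 1.35 in shMETTL14 (adjusted p 1.804e-13), HP, haptoglobin, rose by 0.90, and ORM1, orosomucoid, fell (log2 -0.79). Of 14 liver transcription factor genes 8 were higher and 2 lower (FOXA1 and FOXA3) in shSETD2, and 3 were higher (NR0B2, ONECUT1 and ONECUT2) and 5 lower (CEBPA, FOXA1, FOXA3, HNF4G and NR1H4) in shMETTL14. Under actinomycin D 14, 13 and 14 of these 14 factor genes had a called slope below 0 in shCtrl, shSETD2 and shMETTL14 (33.2%, 36.2% and 34.8% of all genes), with medians of log2 -0.31, -0.33 and -0.32 per h. In shCtrl FOXA1 had a slope of -0.66 and CEBPA of -0.60. Of the 12 other complement genes 10, 9 and 10 were called above 0 in the 3 lines, where 37.8%, 34.2% and 38.2% of all genes were, and of the 20 other coagulation genes 15, 13 and 16. Of the 13 genes of the acute phase list 8, 7 and 7 were called above and 4 below 0 (CEBPB, CEBPD, HAMP and SOCS3 in each line).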

How the data were processed

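RNA sequencing libraries of 3 HepG2 lines at 4 times of actinomycin D were used, 24 in all. Reads were trimmed, aligned and counted with cutadapt, TopHat and HTSeq 0.6.1p1 on GRCh37, per the submitters' processing notes; neither strand setting nor annotation release was found in these sources. The authors deposited counts per gene and RPKM values, which equal counts over exon length and library total (largest relative deviation 3.87e-07), and a table of half-lives in hours. RPKM served for order between genes only.

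Counts were tested with edgeR 4.0.16 (R 4.3.3): TMM scaling, a filter on low counts, 1 mean per group (12 residual degrees of freedom), the quasi-likelihood F test and Benjamini-Hochberg adjustment over 14887 genes. The slope is the least-squares slope of 4 group means on hours. The test was run on simulated data first. Alternatives used limma 3.58.1 and DESeq2 1.42.0, other scalings and filters, and left out each library. Members, lists and tests were chosen with earlier results of these data known. Values by library are given for the member with the smallest p of each role and for those opposed to their role; genes named because a count was 5 or fewer were picked after their values were seen. No member was left out. A result on 1 gene outside the members is not reported here.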

Additional observations from a re-analysis of the deposited data

Results flagged for a closer look

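Several effects differed between lines by edgeR's test of the difference itself. At 0 h 4 members were called on opposite sides of shCtrl in the knockdown lines, and shSETD2 differed from shMETTL14 by log2 2.23 for SERPINC1, 0.82 for CPB2, -0.48 for C1S and -1.43 for SERPING1. Each call of C1S against shCtrl was lost when some single libraries were left out.

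The slope under actinomycin D differed between shSETD2 and shCtrl by log2 -0.0392 per h for FGA, -0.0555 for FGG and -0.0395 for CFI. Between shMETTL14 and shCtrl it differed by 0.0362 for F5, 0.0319 for SERPIND1, 0.0342 for A2M and 0.0929 for MASP2. None of the shSETD2 differences was called with RLE or upper quartile scaling or with DESeq2. None of the shMETTL14 differences was called with library size alone or limma.

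Between shSETD2 and shMETTL14 the slope differed by log2 -0.0342 per h for FGA, -0.0407 for FGB, -0.047 for FGG, -0.0482 for F5, -0.139 for F13B, -0.028 for SERPIND1, -0.0795 for MASP2, -0.0609 for C5 and -0.0488 for CFI. The comparisons share libraries, so the same gene can appear in more than 1 of them. Most of these slope differences between the knockdown lines were not called with library size alone or limma.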

How the results depend on the processing

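At 0 h the counts of members higher than shCtrl moved by less than 1.5 times under every alternative run. The count lower in shMETTL14 was 5 with RLE scaling and 4 with DESeq2 or a fit of the compared groups alone, against 2. Between the knockdown lines 11 were higher with library size alone or limma (pseudocount 1 or 0.1), against 21. With 1 library left out, shSETD2 gave 32 to 34 higher and 2 to 3 lower, shMETTL14 26 to 32 and 2 to 5, and their difference 16 to 22 and 9 to 11. Slopes gave 31 to 36, 34 to 39 and 36 to 40 above 0 in shCtrl, shSETD2 and shMETTL14 and 0 to 1 below 0. In shCtrl 1 was below 0 with library size alone, the strict filter (1 CPM), limma, the groups alone, or 0, 1 and 3 h; in shSETD2 1 with library size alone or limma.

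Slope differences were less stable. Against shCtrl, shSETD2 gave 1 higher with RLE, 2 with DESeq2, and 3 with limma (pseudocount 1) or the groups alone; it gave 0 lower with RLE, upper quartile, DESeq2, the groups alone or 0, 1 and 3 h, and 1 with limma (0.1). Leaving out 1 library gave 0 to 6 higher and 0 to 10 lower. For shMETTL14 the 4 higher became 0 with library size or limma, 2 without the filter or over 0, 1 and 3 h, 19 with the groups alone, and 0 to 12 with 1 library left out; limma (0.1) gave 1 lower. Between the knockdown lines the 9 lower became 2 with RLE, 1 with library size, limma or the groups alone, 3 with upper quartile or over 0, 1 and 3 h, 4 with DESeq2, and 2 to 13 with 1 library left out; limma (1) gave 2 higher, and single omissions 0 to 1. The cause was not tested.

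Signs turned as follows, in the order library size, limma 1, limma 0.1. For shSETD2 minus shMETTL14 at 0 h: F11 -0.0244, -0.0224, -0.0245; C3 -0.0688, -0.0684, -0.0685; FGA -0.0545, -0.0543, -0.0543; A2M -0.175, -0.175, -0.175. For slopes: MASP1 -0.000857, -0.000563, -0.00138 (shCtrl), -0.0111, -0.00449, -0.00904 (shSETD2) and -0.00489, -0.00291, -0.00478 (shMETTL14), MASP2 -0.0199, -0.0148, -0.0194 (shMETTL14). Over 0, 1 and 3 h slopes were -0.244 (C6), -0.0204 (MASP1), -0.0156 (F12) and -0.0107 (F13B) in shCtrl, and -0.0365 (C6) and -0.0372 (MASP1) in shSETD2. With limma (1) slope differences were 0.0328 (HRG) and 0.0725 (PLG) for shSETD2 minus shCtrl, and 0.0246 (HRG) and 0.06999 (PLG) for shSETD2 minus shMETTL14; SERPIND1 gave 0.00459 with the groups alone.

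The replicate block (replicate number as a term) gave 3 members lower in shMETTL14 at 0 h, 3 with a lower slope in shSETD2, 4 with a higher slope in shMETTL14 and 12 lower between the knockdown lines. For each pair of groups, the deviations of replicate 1 from its group mean were correlated over the tested genes. Of these 66 correlations 23 exceeded 0.1 (median 0.0562, range -0.105 to 0.373). The main fit did not pair libraries by number, and whether same-numbered libraries of some groups belong together was not tested. Single times were not recomputed under alternatives. Low counts limit KLKB1, HRG, C8G and PLG in shCtrl; intervals cover counting error only.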
